A study of Homo sapiens with 16 samples.

Results

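Open chromatin was described at the loci of the 3 Ikaros family members IKZF1, IKZF2 and IKZF3, across 2 human T-cell acute lymphoblastic leukaemia lines given ACBI-1 or DMSO. Peaks were taken from 3 windows of the hg19 build, chr7:50330000-50480000 for IKZF1, chr2:213855000-214025000 for IKZF2 and chr17:37910000-38030000 for IKZF3, which span 150, 170 and 120 kb. Peaks from the 16 lists that had 1 base or more in common were joined into a region. The windows held 50 of the 131357 regions of the genome, 18 at IKZF1, 22 at IKZF2 and 10 at IKZF3, built from 107, 94 and 64 peaks.

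The assay was ATAC-seq, whose Tn5 transposase cuts and tags DNA that is not wrapped tightly in nucleosomes, so that accessible stretches appear as peaks of reads. DND41 and MOLT4 cells, both established lines, were cultured with 100 nM ACBI-1 or with the solvent DMSO and collected at 3 h or 24 h. This gave 8 groups of 2 libraries: DND41 with DMSO and DND41 with ACBI-1, each at 3 h and at 24 h, and the same 4 for MOLT4. ACBI-1 is a bifunctional degrader that brings the bromodomain proteins SMARCA2, SMARCA4 and PBRM1, subunits of SWI/SNF chromatin remodelling complexes, to the VHL ubiquitin ligase. No label names a genetic change of either line.

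IKZF1 encodes Ikaros, IKZF2 Helios and IKZF3 Aiolos, transcription factors with an N-terminal group of zinc fingers that binds DNA and a C-terminal pair through which members form dimers with themselves and each other. They are best known in lymphocytes, where they act with the NuRD chromatin remodelling complex. Ikaros is required for normal lymphoid development and its loss occurs in acute lymphoblastic leukaemia. Helios is expressed in developing T cells and in many regulatory T cells, and Aiolos in B cells and in subsets of T cells.

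To show the base composition at the start of these genes, RefSeq promoter entries on GRCh38.p14 were matched for 2 of the 3 members, IKZF1 with 3 starts and IKZF2 with 2. Each entry runs from 250 bases before to 50 bases after the start and is 300 bases long. The most upstream start of each gene is printed 5′ to 3′ on the strand of the gene, with any copy of the Ikaros core motif TGGGAA, searched on both strands, in capitals. No overlap with another motif arises, since this was the one motif searched.
IKZF1 (GRCh38.p14, chr7:50304466-50304765, plus strand): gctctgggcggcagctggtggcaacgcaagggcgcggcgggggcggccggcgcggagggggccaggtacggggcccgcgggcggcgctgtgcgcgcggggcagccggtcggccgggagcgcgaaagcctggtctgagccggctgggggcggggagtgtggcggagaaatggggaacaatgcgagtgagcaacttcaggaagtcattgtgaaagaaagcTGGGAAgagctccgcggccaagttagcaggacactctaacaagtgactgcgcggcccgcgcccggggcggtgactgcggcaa
IKZF2 (GRCh38.p14, chr2:213152407-213152706, minus strand): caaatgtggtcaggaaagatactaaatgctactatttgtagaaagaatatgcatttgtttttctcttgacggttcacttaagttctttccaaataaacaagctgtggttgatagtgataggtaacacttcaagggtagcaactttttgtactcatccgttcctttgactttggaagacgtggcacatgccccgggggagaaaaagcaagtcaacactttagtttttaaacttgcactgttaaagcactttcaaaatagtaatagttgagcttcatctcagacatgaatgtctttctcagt
The IKZF1 stretch was 71.0% G or C, more than 81.9% of all promoters in the table, and held 35 CpG dinucleotides. In the IKZF2 stretch 37.3% of bases were G or C, more than in 7.06% of promoters, with 4 CpG dinucleotides. TGGGAA occurred at 1 place in the IKZF1 stretch, starting at base 219, and had no match in the IKZF2 stretch. Among 35116 promoters of this length 24% held the motif. The second IKZF2 start had 48.7% G or C, and the 2 further IKZF1 starts had 47.0% and 35.3%, with no motif match in any of the 3. The peaks are on hg19, so which of them covers these stretches is not stated, and peaks are named below by position alone.

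Each deposited peak list gave positions without heights or read totals, so the depth of each library is unknown, no counting interval is given, and a missing peak says only that no peak was listed. Libraries listed 26145 to 46712 peaks on chromosomes 1 to 22 and X, between 39117 and 46712 with DMSO and between 26145 and 33870 with ACBI-1. The ranges of the 2 treatments did not overlap, and list length moves with treatment in every treatment comparison. Median peak width also differed between libraries. In MOLT4 it was 318.0 and 341.0 bp with DMSO at 3 h, 443.0 and 427.0 bp with DMSO at 24 h, and 357.0 and 399.0 bp with ACBI-1 at 24 h. Widths in bp below are not scaled to these medians. Values on lists of equal length, and as a share of the bases a library's peaks cover, are given with the window results. Groups were taken from the sample titles, since the cell line field named the other line in 8 samples, whereas the line codes inside the peak names matched the titles. Peak names carried one tag at 3 h and another at 24 h, and no source at hand says what the tag means. Time and whatever the tag marks cannot be told apart. Whether the 2 libraries of a group are separate cultures is not in the labels, and p-values thus measure only the spread between the libraries at hand, possibly a technical one.

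Of the 50 regions, 6 had a peak in all 16 libraries: 2 at IKZF1, 3 at IKZF2 and 1 at IKZF3. That was 12% of the regions, against 9.16% of regions in the genome. Another 22 regions, or 44.0%, had a peak in 1 library, against 51.0% in the genome, and 13 of these lay at IKZF2, 6 at IKZF1 and 3 at IKZF3. The remaining 22 had peaks in 2 to 15 libraries. Peaks occurred in both lines at 21 regions, in DND41 alone at 17 and in MOLT4 alone at 12. Over the genome these numbers were 41748, 53292 and 36317 of 131357 regions. Of the regions found in 1 line alone, 2 in DND41 and 5 in MOLT4 had a peak in 2 or more libraries, against 11026 and 11616 in the genome. When either library of a group had a peak in a region, the other had one too in 68.4% of cases at IKZF3, 52.5% at IKZF2 and 49.2% at IKZF1, against 57.2% over the genome.

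**Figure D1:**
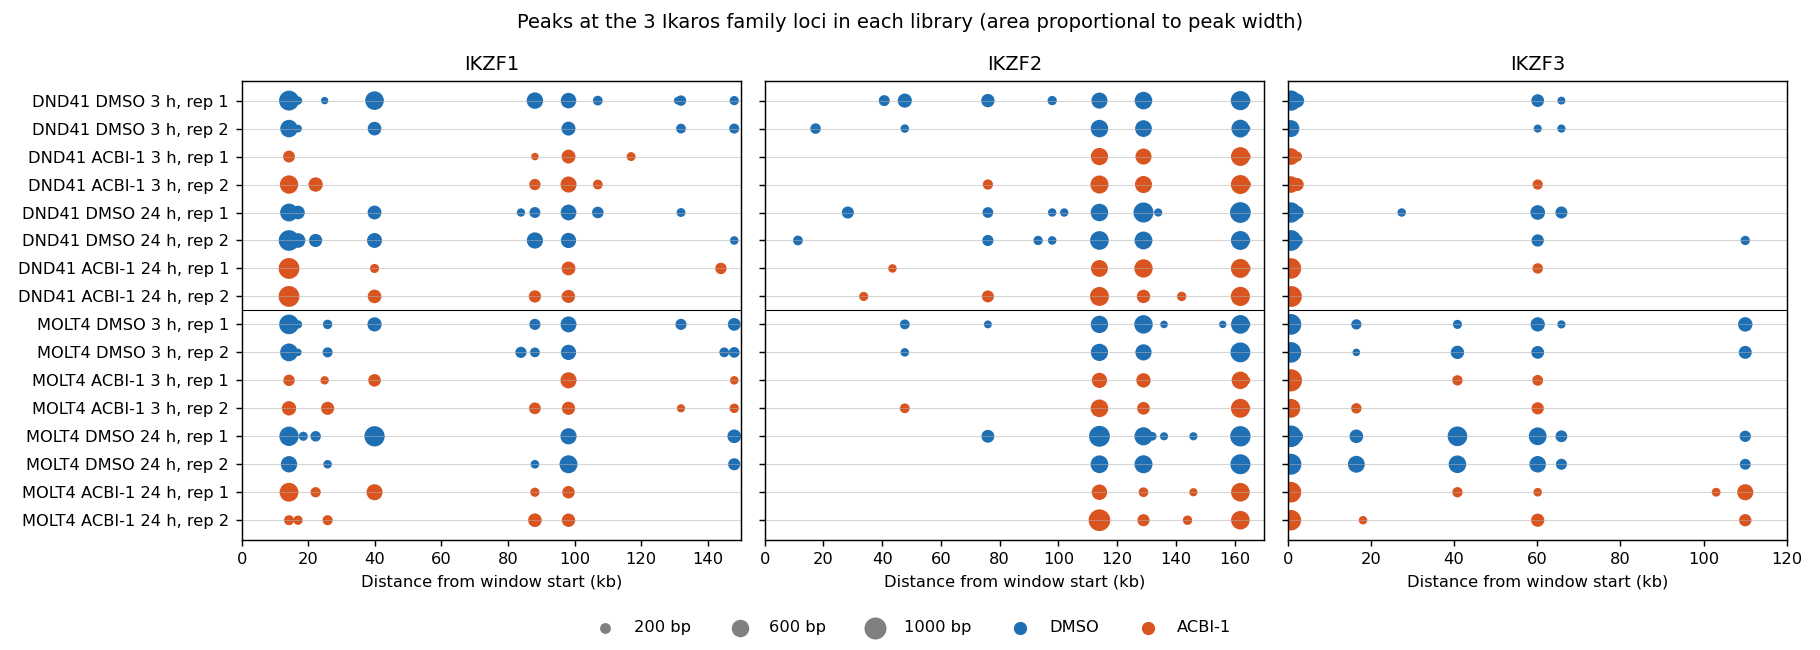
Regions in the IKZF1, IKZF2 and IKZF3 windows by distance from the window start (kb, horizontal axis) and the 16 libraries by group (vertical axis); each circle is a region with a peak in that library, with an area in proportion to its width, blue for DMSO and orange for ACBI-1. Unbroken columns of circles are the 6 regions found in all 16 libraries, and scattered circles include the 22 found in 1.

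The number of regions with a peak was lower with ACBI-1 at IKZF1 and IKZF3, and the bases covered by peaks were lower at all 3 loci. IKZF1, which encodes Ikaros, had 7.25 ± 1.58 regions with DMSO and 4.88 ± 0.641 under ACBI-1 (SD, n = 8 libraries each). IKZF3, which encodes Aiolos, had 5.12 ± 1.46 and 2.88 ± 1.25. At IKZF2, which encodes Helios, the values were 6.62 ± 1.77 and 4.62 ± 0.744, and this difference did not pass the test. These differences lay within the range of the rest of the genome: among 7150 tiles of 150 kb with a mean of at least 2 regions, the median change was -25.0%, with the 10th percentile at -50.0%.

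In DND41 cells, the 2 DMSO libraries at 3 h had peaks in 10 and 6 regions of the IKZF1 window and the 2 ACBI-1 libraries in 4 and 5. At 24 h the DND41 values were 8 and 7 with DMSO and 4 and 5 with ACBI-1. MOLT4 cells had 8 and 8 with DMSO and 5 and 6 with ACBI-1 at 3 h. At 24 h MOLT4 had 6 and 5 against 5 and 5. The ACBI-1 libraries were therefore lower without overlap in 3 of the 4 pairs of groups, and at 24 h in MOLT4 the groups touched at 5. How often tiles of the genome had such pairs was not counted. The counts of pairs at the 3 windows thus stand without a genome share. The difference was -2.38 regions, or -32.8% (exact permutation test within line and time, two-sided, n = 8 each, p = 0.00463, Benjamini-Hochberg adjusted over all tiles and the 3 windows, adjusted p = 0.0311). In the same test 21.6% of 11102 tiles and windows were called lower with ACBI-1 and 0.0180% higher, and 35.0% of tiles had a larger fall than IKZF1. The IKZF1 call was lost without replicate 1 of DND41 DMSO at 3 h, and without either DND41 ACBI-1 library at 3 h, with adjusted p up to 0.0667. With all lists shortened to the 26145 widest peaks, the difference was -0.250 regions (exact permutation test, adjusted p = 0.998).

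The IKZF2 window had peaks in 8 and 6 regions with DMSO in DND41 at 3 h and in 4 and 5 with ACBI-1. At 24 h in DND41 it had 8 and 8 against 5 and 6. In MOLT4 the values were 8 and 4 against 4 and 5 at 3 h, and 7 and 4 against 4 and 4 at 24 h. The groups did not overlap in DND41 at either time, whereas in MOLT4 the replicate 2 DMSO libraries sat at the ACBI-1 level at both times. The difference was -2.0 regions, or -30.2% (exact permutation test, two-sided, n = 8 each, p = 0.0185, adjusted p = 0.0639), and 39.8% of tiles had a larger fall. With limma, which borrows the spread across tiles, the same difference had an adjusted p of 0.0320, in a fit that called 49.7% of 7150 tiles lower. Limma was added to this comparison after seeing the data. The exact test passed without replicate 2 of MOLT4 DMSO at 3 h or at 24 h, with adjusted p as low as 0.0353. On lists of equal length the IKZF2 difference was 0 regions (exact permutation test, adjusted p = 1.0).

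At IKZF3 the DND41 libraries had 4 and 3 regions with DMSO and 2 and 3 with ACBI-1 at 3 h, and 5 and 4 against 2 and 1 at 24 h. MOLT4 libraries had 6 and 5 with DMSO and 3 and 3 with ACBI-1 at 3 h, and 7 and 7 against 5 and 4 at 24 h. The treated libraries lay below the controls without overlap in 3 of the 4 pairs of groups, with DND41 at 3 h sharing the value 3. The difference of -2.25 regions, or -43.9%, passed the test (exact permutation test, two-sided, n = 8 each, p = 0.00309, adjusted p = 0.0308). It passed without any single library as well, with adjusted p between 0.0294 and 0.0441. A larger fall was seen in 16.8% of tiles, so the IKZF3 window lay in the lower part of the genome's range. On lists of equal length the difference was -1.0 region (exact permutation test, adjusted p = 0.373).

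**Figure D2:**
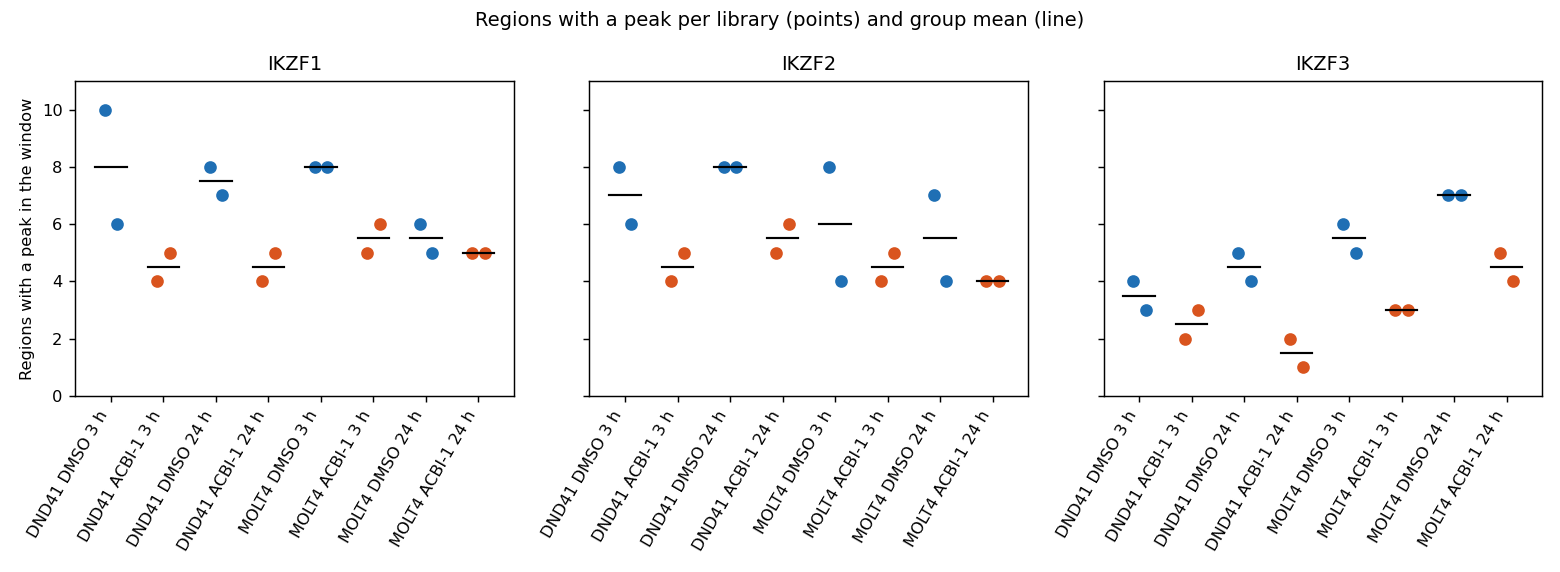
Number of regions with a peak in each window (vertical axis) by line, time and treatment (horizontal axis); points are single libraries and lines the mean of 2. ACBI-1 libraries lie below the DMSO libraries of their line and time without overlap in 3 of 4 pairs at IKZF1, 2 of 4 at IKZF2 and 3 of 4 at IKZF3. How often this occurred in tiles of the genome was not counted.

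Covered bases gave a second measure of the same windows, the summed width of the peaks in them. At IKZF1 they averaged 3218 ± 735 bp under DMSO and 2002 ± 488 bp under ACBI-1 (SD over 8 libraries each), a difference of -1216 bp or -37.8% (exact permutation test, two-sided, p = 0.00617, adjusted p = 0.0238). The IKZF1 call was lost without replicate 1 of DND41 DMSO or of DND41 ACBI-1 at 3 h, with adjusted p up to 0.0647. IKZF2 had 3328 ± 578 bp and 2489 ± 411 bp, a difference of -840 bp or -25.2% (exact permutation test, n = 8 each, p = 0.00309, adjusted p = 0.0166). At IKZF3 the means were 2614 ± 1074 bp and 1528 ± 474 bp, a difference of -1086 bp or -41.5% (exact permutation test, n = 8 each, p = 0.00309, adjusted p = 0.0166). Of 15010 tiles and windows tested, 37.8% were called lower in covered bases. Over the 7150 tiles with a mean of at least 2 regions, the median change in covered bases was -24.8%. A larger fall was seen in 25.1% of tiles for IKZF1, 49.1% for IKZF2 and 19.8% for IKZF3. The IKZF2 window thus lay near the middle of the genome's range. On lists of equal length none of the 3 windows passed, with -650 bp at IKZF1 (exact permutation test, adjusted p = 0.213), -501 bp at IKZF2 (adjusted p = 0.0728) and -817 bp at IKZF3 (adjusted p = 0.0610). Divided by all bases that a library's peaks covered, the IKZF1 window held 170 ± 34.0 bp per Mb with DMSO and 143 ± 23.8 with ACBI-1, and the IKZF3 window 135 ± 47.7 and 110 ± 29.6. The IKZF2 window held 176 ± 25.3 and 182 ± 34.4 bp per Mb, so the sign at IKZF2 turned on this scale. None of the 3 passed the test as a share (exact permutation test, adjusted p = 0.219, 0.753 and 0.0989 for IKZF1, IKZF2 and IKZF3).

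**Figure D3:**
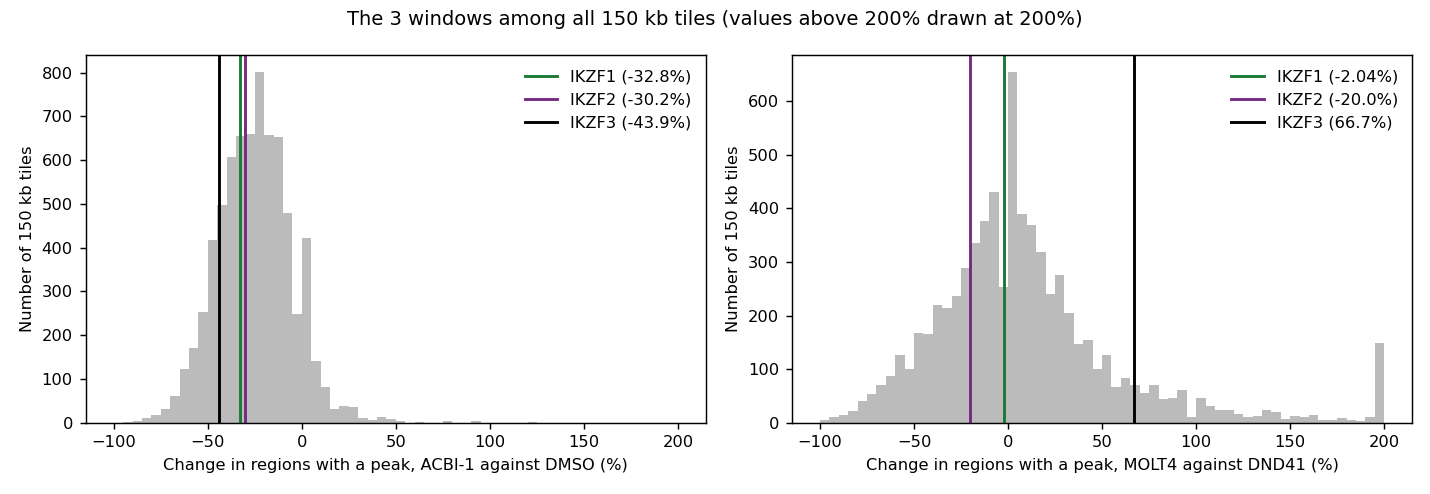
Percent change in regions with a peak for all 7150 tiles of 150 kb as a histogram, for ACBI-1 against DMSO and for MOLT4 against DND41, with vertical lines at the IKZF1, IKZF2 and IKZF3 windows. For treatment the lines stand at -32.8%, -30.2% and -43.9% against a median of -25.0%, and for line the IKZF3 window stands at 66.7%, above 89.0% of tiles.

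Whether the treatment difference itself varied with line or time was tested with limma, in a model of 8 group means. The difference in MOLT4 minus that in DND41 was 1.75 regions at IKZF1 (SE 1.08, adjusted p = 0.502), 1.0 at IKZF2 (SE 1.32, adjusted p = 0.775) and -0.50 at IKZF3 (SE 0.60, adjusted p = 0.747). In that limma test 0.503% of 7150 tiles were called. Between 24 h and 3 h the treatment difference moved by 1.25 regions at IKZF1 (limma, SE 1.08, adjusted p = 0.754), by 0.00 at IKZF2 (SE 1.32, adjusted p = 1.0) and by -1.0 at IKZF3 (SE 0.60, adjusted p = 0.599), where 0% of tiles were called. Of the 3 windows, 0 had an unadjusted p under 0.05 in either test. Within single pairs of groups, limma called IKZF3 lower in DND41 at 24 h (-3.0 regions, adjusted p = 0.0145), in MOLT4 at 3 h (-2.50, adjusted p = 0.0362) and in MOLT4 at 24 h (-2.50, adjusted p = 0.0340), where 14.5%, 8.38% and 8.28% of tiles were called lower. IKZF1 and IKZF2 passed in none of the 4 pairs, and the largest IKZF1 difference was in DND41 at 3 h (-3.50 regions, limma, SE 1.08, adjusted p = 0.0691), where 10.3% of tiles were called lower.

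Between the lines, the IKZF3 window had more regions in MOLT4 than in DND41, while IKZF1 and IKZF2 did not pass the test. MOLT4 libraries had 5.0 ± 1.6 regions at IKZF3 and DND41 libraries 3.0 ± 1.31 (SD, n = 8 each), a difference of 2.0 or 66.7% (exact permutation test within time and treatment, two-sided, p = 0.00463, adjusted p = 0.0254). Higher counts in MOLT4 were called in 15.9% of 12219 tiles and windows, and 89.0% of tiles had a smaller difference than IKZF3. With DMSO alone, the 4 DND41 libraries had 3 to 5 regions and the 4 MOLT4 libraries 5 to 7, meeting at 5. With ACBI-1 the ranges were 1 to 3 and 3 to 5, meeting at 3. Covered bases at IKZF3 were 2625 ± 1014 bp in MOLT4 and 1518 ± 569 bp in DND41, a difference of 1108 bp or 73.0% (exact permutation test, n = 8 each, p = 0.00154, the smallest this design can give, adjusted p = 0.00905). In covered bases 22.6% of 15608 tiles and windows were called higher in MOLT4. On lists of equal length the IKZF3 difference was 1.25 regions (exact permutation test, adjusted p = 0.0510) and 919 bp (adjusted p = 0.00888). As a share of all covered bases it was 61.4 bp per Mb (exact permutation test, adjusted p = 0.00821).

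IKZF1 had 6.0 ± 1.31 regions in MOLT4 and 6.12 ± 2.1 in DND41 (SD, n = 8 each; exact permutation test, p = 1.0, adjusted p = 1.0). IKZF2 had 5.0 ± 1.6 in MOLT4 and 6.25 ± 1.58 in DND41, a difference of -1.25 (exact permutation test, n = 8 each, p = 0.128, adjusted p = 0.232), against 13.6% of tiles and windows called lower in MOLT4. With peaks narrower than 170 bp left out of every library, the IKZF2 difference was -2.12 regions (exact permutation test, adjusted p = 0.0254). That width is the largest of the shortest peaks listed in any library, which ranged from 129 to 170 bp. Covered bases at IKZF2 were 2644 ± 644 bp in MOLT4 and 3173 ± 575 bp in DND41 (exact permutation test, n = 8 each, p = 0.0432, adjusted p = 0.0871), where 17.6% of tiles and windows were called lower in MOLT4. Ordered by regions per library, DND41 with DMSO ran from IKZF1 (7.75 ± 1.71, n = 4) through IKZF2 (7.5 ± 1.0) to IKZF3 (4.0 ± 0.816), whereas MOLT4 with DMSO ran from IKZF1 (6.75 ± 1.5) through IKZF3 (6.25 ± 0.957) to IKZF2 (5.75 ± 2.06), and the neighbours IKZF1 and IKZF2 in DND41 and all neighbours in MOLT4 differed by less than their spread. The windows differ in length, so this order compares windows and not activity of the genes.

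Regions with a peak did not pass the test between 24 h and 3 h in any window. IKZF1 had 5.62 ± 1.30 regions at 24 h and 6.50 ± 2.0 at 3 h (SD, n = 8 each; exact permutation test, p = 0.213, adjusted p = 0.719). IKZF3 had 4.38 ± 2.13 and 3.62 ± 1.30 (exact permutation test, n = 8 each, p = 0.160, adjusted p = 0.656). At IKZF2 the difference was 0.250 regions (exact permutation test, p = 0.833, adjusted p = 1.0). Across the genome 0% of tiles were called for time.

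The 6 constitutive regions, those found in every library, had the widest medians of the 3 loci, with widths from 571.5 to 1040 bp, and stood at the 71.5th to 94.4th percentile of peak widths in their libraries. Regions with a peak in 2 to 15 libraries had median widths of 152.0 to 482.5 bp, and those with a peak in 1 library 136 to 358 bp. At IKZF3 the region chr17:37910110-37911416, at the edge of the window, had a median width of 1040 bp and ranged from 677 to 1209 bp. Its width was 1012 ± 133 bp under DMSO and 951 ± 190 bp under ACBI-1 (SD over 8 libraries each), a log2 difference of -0.10 (exact permutation test, p = 0.298, adjusted p = 0.505). It was 1059 ± 99.0 bp in MOLT4 and 904 ± 180 bp in DND41 (exact permutation test, n = 8 each, p = 0.00926, adjusted p = 0.0707). The 3 narrowest values, 677, 687 and 702 bp, were all from DND41 at 3 h.

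At IKZF1 the 2 constitutive regions were chr7:50343665-50344775 and chr7:50427842-50428640, 84.0 kb apart. In the first, the DND41 libraries had widths of 970 and 755 bp with DMSO and 349 and 827 bp with ACBI-1 at 3 h, and 784 and 1044 bp against 1066 and 1060 bp at 24 h. In MOLT4 the widths were 944 and 778 bp against 319 and 505 bp at 3 h, and 918 and 659 bp against 869 and 246 bp at 24 h. The lowest 4 values were all ACBI-1 libraries, as were the highest 2. The groups did not overlap in MOLT4 at 3 h, where ACBI-1 peaks were narrower, or in DND41 at 24 h, where they were wider. How often regions of the genome had such pairs was not counted. A change of the treatment difference with line (limma, adjusted p = 0.999) or with time (limma, adjusted p = 0.866) did not pass in this region. The log2 difference was -0.57 (exact permutation test, n = 8 each, p = 0.0849, adjusted p = 0.246). The second region was 610 ± 88.9 bp wide with DMSO and 486 ± 97.1 bp with ACBI-1, a log2 difference of -0.34 or -21.0% (exact permutation test, n = 8 each, p = 0.0370, adjusted p = 0.160).

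At IKZF2 the 3 constitutive regions lay within the part of the window with the higher coordinates, at chr2:213968786-213969969, chr2:213983703-213984858 and chr2:214016130-214017244, with 14.9 and 32.4 kb between neighbours. The middle one did not pass the exact test for treatment. By limma, which was added to this comparison after seeing the data, it was narrower with ACBI-1. Its widths in DND41 were 757 and 688 bp with DMSO and 631 and 714 bp with ACBI-1 at 3 h, and 988 and 784 bp against 825 and 441 bp at 24 h. In MOLT4 they were 839 and 645 bp against 505 and 395 bp at 3 h, and 807 and 797 bp against 232 and 365 bp at 24 h. All 4 MOLT4 ACBI-1 values lay below all 4 MOLT4 DMSO values, and in DND41 the groups overlapped at both times. How often regions of the genome separated in this way was not counted. The log2 difference over both lines was -0.71 or -38.8% (exact permutation test, two-sided, n = 8 each, p = 0.00617, adjusted p = 0.0710), and limma gave an SE of 0.15 and an adjusted p of 0.0196. Of the 12037 regions found in all 16 libraries, 3.25% were called narrower by the exact test and 7.48% by limma. In MOLT4 at 24 h the log2 difference was -1.46 (limma, SE 0.29, adjusted p = 0.0412), where 1.11% of regions were called narrower. With a replicate block this difference in MOLT4 at 24 h did not pass (limma, adjusted p = 0.0522), while that over both lines did (limma, adjusted p = 0.0247). The test of the difference between the lines gave -0.77 (limma, SE 0.29, unadjusted p = 0.0236, adjusted p = 0.887), and 0% of regions were called.

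The other 2 constitutive IKZF2 regions did not pass by either tool. The region starting at 213968786 measured 788 ± 128 bp without and 774 ± 185 bp with the degrader (SD, n = 8 each; exact permutation test, p = 0.745, adjusted p = 0.857), and the one starting at 214016130 was 930 ± 91.9 bp and 859 ± 46.5 bp (exact permutation test, n = 8 each, p = 0.0787, adjusted p = 0.235). The constitutive IKZF1 and IKZF3 regions did not pass for treatment with either tool. By line, 0 of the 6 widths were called, with 2 at an unadjusted p under 0.05 by the exact test and 2 by limma, against 9.27% of regions called by the exact test and 9.86% by limma in the genome. For treatment the exact test called 0 of the 6, with 2 at an unadjusted p under 0.05, and limma called 1.

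**Figure D4:**
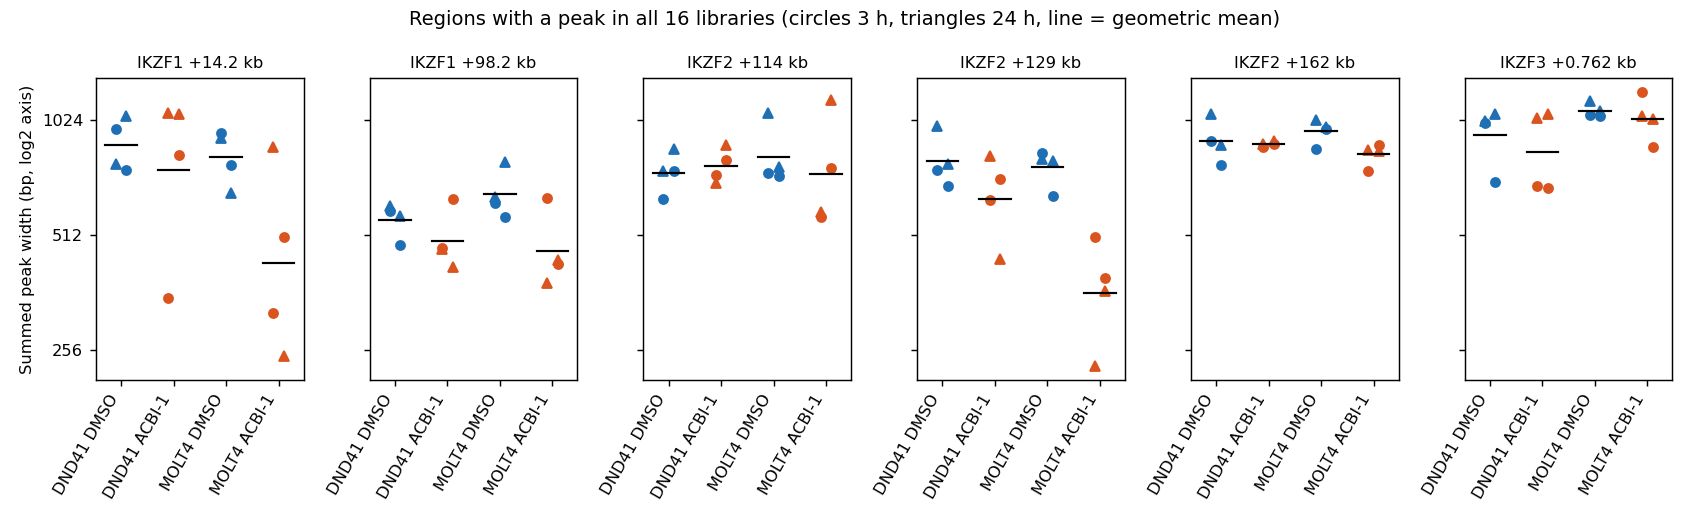
Peak width (bp, vertical axis) of the 6 regions found in all 16 libraries, by line and treatment, titled by distance from the window start; circles are 3 h and triangles 24 h libraries, and lines the geometric mean of 4, on a log2 axis. In the IKZF2 region at +129 kb, which starts at 213983703, the 4 MOLT4 ACBI-1 libraries, between 232 and 505 bp, lie below the 4 MOLT4 DMSO libraries, between 645 and 839 bp. How often this occurred in regions of the genome was not counted.

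Of the 22 regions with a peak in 2 to 15 libraries, 17 had it in more DMSO than ACBI-1 libraries, 0 in more ACBI-1 libraries, and 5 in equally many. The share of 77.3% stood beside 69.7% over the genome, where 36474 of 52353 such regions had more DMSO libraries and 6944 more ACBI-1 libraries. By gene, the more-DMSO regions were 7 of 10 at IKZF1, 4 of 6 at IKZF2 and 6 of 6 at IKZF3. Presence could be tested singly for treatment at 7 regions, of which 1 passed and 2 had an unadjusted p under 0.05 (exact permutation test), against 27.9% of 8082 regions called lower in the genome. The one that passed was chr17:37975634-37975995 at IKZF3. A peak was listed in DND41 with DMSO at 155 and 166 bp at 3 h and at 356 bp in replicate 1 at 24 h, and in MOLT4 with DMSO at 164 bp in replicate 1 at 3 h and at 342 and 301 bp at 24 h. No ACBI-1 library of the 8 listed a peak there (6 of 8 against 0 of 8, exact permutation test, two-sided, p = 0.0139, adjusted p = 0.0497). The adjusted p rose above 0.05 when any one of 15 of the 16 libraries was left out, to at most 0.0643, and the call held only without replicate 2 of DND41 DMSO at 24 h, at 0.0463. On lists of equal length the region had a peak in 2 of 8 DMSO and 0 of 8 ACBI-1 libraries and was not called (exact permutation test, p = 0.50).

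At IKZF1 the region chr7:50477858-50478334, named after its values were seen, had a peak in 3 of 4 DND41 and 4 of 4 MOLT4 DMSO libraries and in 0 and 2 of the ACBI-1 libraries (exact permutation test, n = 8 each, p = 0.0278, adjusted p = 0.0573). Also named after its values were seen, chr7:50346606-50347258 had peaks in all 4 DND41 DMSO libraries, 2 MOLT4 DMSO libraries and 1 of the 8 ACBI-1 libraries (exact permutation test, p = 0.0648, adjusted p = 0.110). A region with equal presence was chr7:50417573-50418616, with a peak in 3 of 4 libraries of each line and treatment and a median width of 309.0 bp. IKZF3 had a further region found in 14 libraries, chr17:37969711-37970489. There the 4 MOLT4 DMSO peaks were 402 to 779 bp wide and the 4 MOLT4 ACBI-1 peaks 182 to 429 bp, and 2 of the 4 DND41 ACBI-1 libraries listed none. A width test was not made where peaks were missing.

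At IKZF3, 3 regions were called between the lines in presence, all higher in MOLT4, of the 5 regions in the 3 windows that could be tested, and the other 2 did not pass. Across the genome 64.2% of 11709 regions were called in either direction and 40.8% higher in MOLT4. At chr17:37950354-37951299 all 4 MOLT4 DMSO libraries had a peak, at 204 and 438 bp at 3 h and 946 and 761 bp at 24 h, replicate 1 of MOLT4 ACBI-1 had one of 262 bp at 3 h and of 259 bp at 24 h, and no DND41 library had one (exact permutation test, n = 8 each, p = 0.0139, adjusted p = 0.0311). At chr17:37926106-37926804 the 4 MOLT4 DMSO libraries had peaks of 258 and 142 bp at 3 h and 459 and 699 bp at 24 h, 1 MOLT4 ACBI-1 library had one of 265 bp, and no DND41 library had one (exact permutation test, n = 8 each, p = 0.0278, adjusted p = 0.0433). At chr17:38020111-38020764 the MOLT4 DMSO peaks were 513 and 415 bp at 3 h and 314 and 291 bp at 24 h, and the MOLT4 ACBI-1 libraries had none at 3 h and peaks of 640 and 374 bp at 24 h. One DND41 library, DMSO replicate 2 at 24 h, had a peak of 213 bp there (exact permutation test, n = 8 each, p = 0.0278, adjusted p = 0.0433). In MOLT4 each of these 3 regions had peaks in 4 of 4 DMSO libraries. In the order given, they had peaks in 2, 1 and 2 of 4 MOLT4 ACBI-1 libraries, a difference that was not tested within the line. None of the 3 was called on lists of equal length, where the MOLT4 libraries with a peak were 5 at 37950354 (exact permutation test, adjusted p = 0.0570), 3 at 37926106 (p = 0.167) and 4 at 38020111 (p = 0.0556), with 0 in DND41 at each. The call at 38020111 was also lost without replicate 1 of DND41 DMSO at 24 h, and that at 37926106 without replicate 2 of MOLT4 ACBI-1 at 3 h (exact permutation test, p = 0.0556 each). With peaks narrower than 170 bp left out, 37926106 had peaks in 4 MOLT4 and 0 DND41 libraries and was not called (exact permutation test, p = 0.0833). With a replicate block, 37926106 and 38020111 were not called (exact permutation test, p = 0.0625 each). At IKZF1, chr7:50355460-50356175 had peaks in 5 of 8 MOLT4 and 0 of 8 DND41 libraries (exact permutation test, p = 0.0417, adjusted p = 0.0594) and was named after its values were seen. It passed without any one of 3 libraries, replicate 1 of MOLT4 ACBI-1 at 3 h, MOLT4 DMSO at 24 h or MOLT4 ACBI-1 at 24 h, with adjusted p from 0.0333 to 0.0354.

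**Figure D5:**
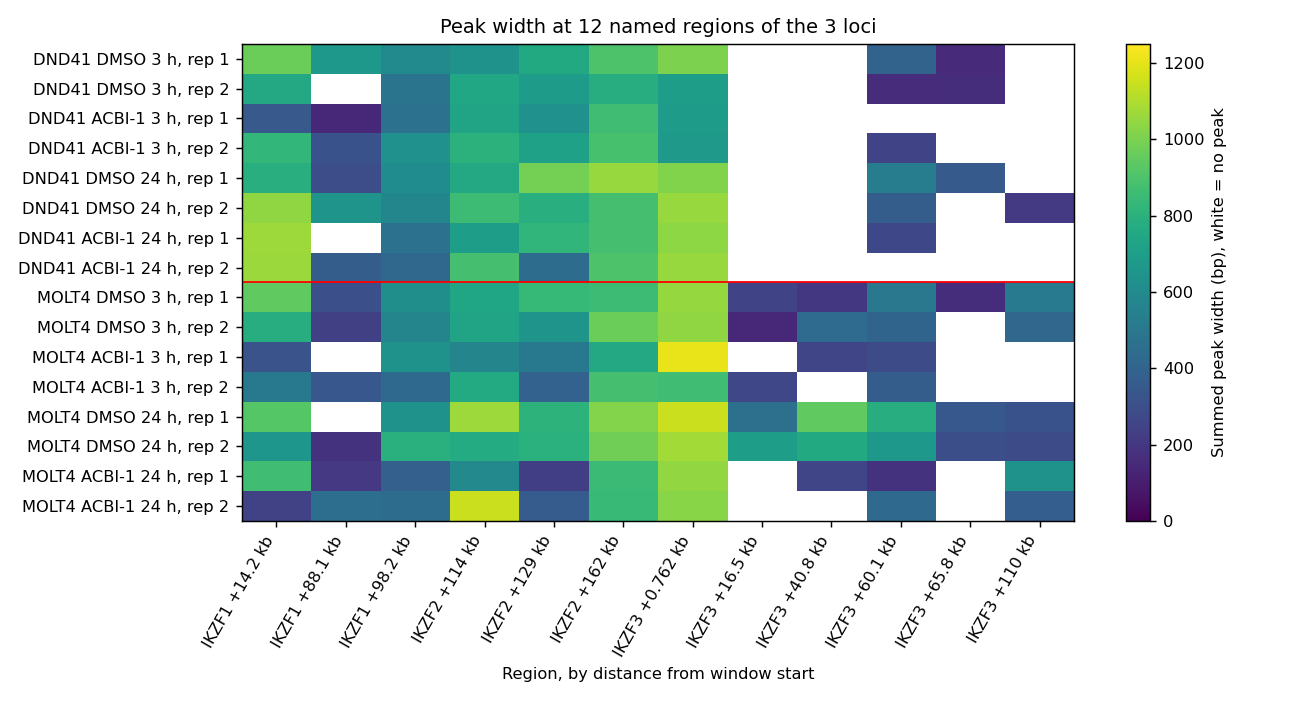
Peak width (bp, colour scale) of the 12 regions of the IKZF1, IKZF2 and IKZF3 windows that met the naming rule (horizontal axis, by distance from the window start) in each of the 16 libraries (vertical axis); white cells have no peak. The IKZF3 regions at +16.5 and +40.8 kb, which start at 37926106 and 37950354, are white in all 8 DND41 libraries, and the one at +65.8 kb, which starts at 37975634, is white in all 8 ACBI-1 libraries.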

How the data were processed

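ATAC-seq peak lists of 16 libraries in 8 groups of 2 were analysed. The deposited lists place each named peak by chromosome, start and end and hold no other value, per the file columns. Per the submitters' processing notes, the authors used Bowtie2, Picard, SAMtools and MACS2 2.1.1.2016030 with hg19, with roles and settings not given in the sources used here. Each list belongs to 1 library, and no 2 peaks of a list overlap.

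Peaks on chromosomes 1 to 22 and X were merged where they shared 1 base, with coordinates counted from 1. Per library, the regions with a peak and the bases covered were counted in each window and in tiles of 150 kb. Width is the summed peak length in a region. Main tests were two-sided exact permutation tests that exchange labels within the other 2 factors, with a smallest possible p of 0.00154 and Benjamini-Hochberg adjustment over all tiles plus windows, or all regions, that could be tested. Calls use an adjusted p under 0.05. Interactions and single pairs of groups used limma 3.58.1 (trend) in R 4.3.3, in a model of 8 group means fitted to the 16 libraries. Counts were fitted over the windows and tiles with a mean of at least 2 regions. Widths, as log2, were fitted over the 12037 regions found in all 16 libraries. Limma was also run for the treatment and line differences, which was added after seeing the data. Other steps used Python 3.11.15, NumPy 2.4.6, pandas 2.3.3 and matplotlib 3.10.9. Scripts were tested on simulated data.

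The members, windows and tests were chosen with earlier results of these data known. Regions named by position had a peak in at least 12 libraries, passed a test, or had a peak in all 4 DMSO libraries of 1 line and at most 1 of the other; regions outside this rule are marked as such. Pairing by the replicate numbers in the titles was checked over the 12037 regions found in all 16 libraries. The correlation of deviations was -0.14 in DND41 at 3 h and -0.02 to 0.01 in the other pairs of groups. No correlation was above 0.01. Pairing in other regions was not checked. Alternatives were a common minimum width, equal list lengths, merging across gaps, shorter windows, other tiles, shares of covered bases, width percentiles, a replicate block, limma and leaving out each library. Gene annotation on hg19, family partner genes, cell type markers and proteins were not analysed here.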

Additional observations from a re-analysis of the deposited data

How the results depend on the processing

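The limits of these results are the unknown depth, the 2 libraries per group and the shorter ACBI-1 lists. In the fit with a replicate block the smallest possible p is 0.00781. Over the 12037 regions found in all 16 libraries, the correlation of deviations by replicate number was -0.14 in DND41 at 3 h. In the other pairs of groups it was -0.02 to 0.01, and regions outside these 12037 were not checked. With the block the treatment difference in regions was -2.38 at IKZF1 and -2.25 at IKZF3 (exact permutation test, adjusted p = 0.0562 each). That in bases was -1216 bp at IKZF1, -840 bp at IKZF2 and -1086 bp at IKZF3 (adjusted p = 0.0534 each), and none of these passed. With the block the IKZF2 difference between lines in bases, -528 bp, passed (exact permutation test, adjusted p = 0.0323), and 1 region in place of 3, the IKZF3 region starting at 37950354, was called between lines in presence. With the numbers of DND41 at 3 h crossed, a setting added after seeing the data, -2.38 at IKZF1 and -2.25 at IKZF3 did not pass in regions (adjusted p = 0.0514 each), while bases passed at all 3 windows (adjusted p = 0.0302 each). The cause of none of these changes was tested.

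With a common minimum width of 170 bp, regions differed with treatment by -2.0 at IKZF1 (exact permutation test, adjusted p = 0.0530) and -1.5 at IKZF3 (adjusted p = 0.102), and by line by 0.250 at IKZF1, the opposite sign (adjusted p = 0.929), and -2.12 at IKZF2 (adjusted p = 0.0254). Bases at IKZF2 then differed by -684 bp between lines (adjusted p = 0.0150). In presence 0 regions were called for treatment and 2 for line, without the IKZF3 region starting at 37926106. With lists of equal length, 26145 peaks, regions differed with treatment by -0.250 at IKZF1 (adjusted p = 0.998) and -1.0 at IKZF3 (0.373), by line by 1.25 at IKZF3 (0.0510) and by time by -0.250 at IKZF2, the opposite sign (1.0). Bases then differed by -650 bp at IKZF1 (exact permutation test, adjusted p = 0.213), -501 bp at IKZF2 (0.0728) and -817 bp at IKZF3 (0.0610), with presence called in 0 regions for treatment and 1 for line, the IKZF1 region starting at 50477858 (6 of 8 MOLT4 and 1 of 8 DND41 libraries, adjusted p = 0.0422), which was not among the 3 called on the full lists. Merging peaks up to 100 bp apart left 0 regions called for treatment in presence. With windows 10 kb shorter at each side, the IKZF1 difference was -1.75 regions (adjusted p = 0.104). As a share of covered bases, in bp per Mb, the treatment difference was -27.1 at IKZF1, 5.63 at IKZF2, the opposite sign, and -25.4 at IKZF3, and the line difference at IKZF2 was -40.2 (exact permutation test, adjusted p = 0.0203). On width percentiles 1 width was called for treatment, the IKZF2 region starting at 213983703 (-23.2), and the line differences at 50427842 and 213968786 turned to -1.73 and -2.44. By limma, added after seeing the data, IKZF2 regions passed for treatment (-2.0, adjusted p = 0.0320) and 1 width was called. Tiles of 100 kb changed no call.

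Leaving out each library in turn gave treatment differences in regions of -2.88 to -1.88 at IKZF1, -2.50 to -1.5 at IKZF2 and -2.38 to -2.12 at IKZF3, and in bases of -1456 to -977, -978 to -701 and -1212 to -960 bp. Line differences ran from -0.625 to 0.375, -1.75 to -0.750 and 1.88 to 2.12 regions, and from -544 to -65.4, -667 to -390 and 982 to 1234 bp; IKZF2 bases passed without replicate 2 of DND41 DMSO at 3 h (exact permutation test, adjusted p = 0.0481). Time differences ran from -1.38 to -0.375, -0.250 to 0.750 and 0.625 to 0.875 regions. The treatment by line estimates (limma) ran from 0.750 to 2.75, 0 to 2.0 and -0.750 to -0.250 regions, and treatment by time from 0.250 to 2.25, -1.0 to 1.0 and -1.25 to -0.750. Presence calls ran from 0 to 1 for treatment and 2 to 4 for line, with 0 width calls in any. Small width differences changed sign without some library: by line at 50427842 (-0.0082 to 0.136), 213968786 (-0.0912 to 0.153) and 214016130 (-0.0347 to 0.0318), and by treatment at 213968786 (-0.167 to 0.0772). The stricter peak threshold was not run, since the lists hold no score.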

Other observations

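Tiles whose number of regions followed a window most closely over the 16 libraries were taken as a description, without a test, among 7051 tiles of 150 kb outside the windows. For IKZF1 the 2 closest were chr9:26850001-27000000 (Pearson's r = 0.93) and chr11:61650001-61800000 (0.91). For IKZF2 they were chr5:86550001-86700000 (0.90) and chr2:192900001-193050000 (0.88), and for IKZF3 chr1:12150001-12300000 (0.93) and chr16:89700001-89850000 (0.93). The libraries differ in list length with treatment, and the tiles were chosen to follow the windows, so these values carry the differences of the windows with treatment and line.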
